A study of Mus musculus with 8 samples.

Results

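The genes described here are 7 genes of meiotic crossover formation and meiotic mismatch repair, Msh4, Msh5, Hfm1, Tex11, Ccnb1ip1, Rnf212 and Mlh3. They were examined in germ cells of E15.5 mouse fetuses with a conditional deletion of Snf5. Their rows were taken from the tables by gene name. Of the 7, 6 have a row under their name in the table of each sex, among 24281 named loci in females and 23944 in males. Rnf212 has no row under its name, and a locus at its position is given separately below. All 6 named genes passed the filter of a mean of at least 1 FPKM (fragments per kilobase of transcript and per 1000000 mapped fragments) in each sex, and they were tested among 11642 loci in females and 12368 in males.

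RNA-Seq was performed on 8 libraries, 2 from control and 2 from Snf5 CKO embryos of either sex, at embryonic day 15.5. Germ cells were isolated by fluorescence from a transgene in which the promoter of Oct4 drives EGFP. Female libraries and male controls pooled cells of several animals, whereas the study lists the male Snf5 CKO samples as single animals. It lists male Snf5 CKO replicate 1 in several such entries, so that library may hold cells of several animals. Snf5 CKO embryos carried one floxed and one deleted Snf5 allele (Snf5 fx/Δ) together with TNAP-Cre, in which the Cre gene sits in Alpl and is active in primordial germ cells. Controls were a mixture of Snf5 fx/+, Snf5 fx/Δ and Snf5 fx/+ with TNAP-Cre, so some control cells also carried a deleted allele or Cre. The labels give the strain as C57BL/6, whereas the study's methods describe a mixed background.

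In meiotic prophase, germ cells break their DNA on purpose and repair part of the breaks as crossovers between homologous chromosomes. Proteins known as ZMM proteins hold the joined DNA intermediates at the sites that become crossovers, and an endonuclease that contains MLH3 then resolves these intermediates with a bias to crossovers. In mice this programme begins in the fetal ovary, whereas male germ cells of the same age leave the cell cycle and enter meiosis only after birth.

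The targeted gene and marker genes were examined first. Snf5, which is listed as Smarcb1, was at 14.7% of its control level in female and 6.09% in male Snf5 CKO libraries. The study estimated that recombination of the floxed allele was incomplete, and it found SNF5 protein in some Snf5 CKO germ cells. The part of such cells in the Snf5 CKO levels given below was not tested. The summed level of 4 germ cell markers (Ddx4, Dazl, Dnd1 and Pou5f1) lay between 1147 and 1345 FPKM in females and between 1877 and 2229 FPKM in males. Within it, Pou5f1, the endogenous Oct4 gene, was at 8.63 and 16.7 FPKM in female control and at 295 and 333 FPKM in female Snf5 CKO. Dnd1, an RNA-binding protein of germ cells, was at 4.94 and 8.81 FPKM in female control and at 141 and 179 FPKM in female Snf5 CKO, and in males at 469 and 729 FPKM in control and at 140 and 204 FPKM in Snf5 CKO. Pou5f1 and Dnd1 were thus called higher in females and Dnd1 lower in males, so the sums hide members that moved apart. Ddx4 and Dazl had no call in either sex, with female means of 329 and 829 FPKM in control and of 226 and 630 FPKM in Snf5 CKO. Male Ddx4 was nevertheless lower in Snf5 CKO, with a mean of 268 FPKM against 511 FPKM in the controls. Its log2 fold change of -0.93 (limma adjusted p = 0.036) was under the size needed for a call. The male Snf5 CKO means of Dazl and Pou5f1 were 893 and 634 FPKM, above control means of 651 and 418 FPKM, without a call. Markers of somatic and blood cells summed to 44.4 and 76.2 FPKM in female control and to 86.3 and 105 FPKM in female Snf5 CKO, where 6 of the 16 tested markers were higher and 2 lower. A large part of these sums came from single loci. The Hba-a1 locus was at 8.32 and 41.1 FPKM in control and at 1.47 and 28.4 FPKM in Snf5 CKO. Pecam1, called higher, was at 4.10 and 3.65 FPKM in control and at 24.3 and 19.7 FPKM in Snf5 CKO. Insl3, also called higher, shares its locus with Jak3. Of the 3 tested Sertoli cell markers in females 1, Aard, was higher and none was lower, and Fshr is listed at 0 in every female library. Markers of pre-granulosa cells, of the ovary, summed to 9.43 and 12.24 FPKM in female control. In female Snf5 CKO they summed to 26.82 and 23.65 FPKM, with 3 of the 7 tested markers higher and 1 lower. In males the sums were 247 and 214 FPKM in control against 459 and 629 FPKM in Snf5 CKO. All 7 tested markers of Sertoli cells, the supporting cells of the testis, were higher in male Snf5 CKO, with sums of 92.5 and 74.6 FPKM in control against 386 and 559 FPKM in Snf5 CKO, whereas Leydig cell markers had sums of 85.7 and 58.2 FPKM in control against 19.2 and 15.1 FPKM in Snf5 CKO. The part of these markers, and of Ddx4, Dazl, Pou5f1 and Dnd1, in the differences described below was not tested.

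The regions upstream of the genes are shown before their levels, because the regulators of such genes are in part known: STRA8 activates meiotic genes, and the repressor complex of E2F6, MGA and MAX, which binds E2F sites and E-boxes, silences germ line genes in other cells. RefSeq sequence of GRCm38.p6, the assembly behind mm10, was available for 250 bases before the annotated start of Msh4, Msh5, Hfm1, Rnf212, Ccnb1ip1 and Mlh3, the last with 2 starts. All of these genes lie on the minus strand, and the sequences are written 5′ to 3′ on that strand. Searched on both strands were CACGTG (the E-box), TTCCCGC (an E2F site) and CNCCTCAG (a motif described for STRA8), which do not overlap each other in the matches found. Msh5, Hfm1 and Rnf212 are shown because they held matches, which are in capitals, and the first start of Mlh3 is shown as a gene without a match whose transcript level was not called different in either sex. Msh4 and Ccnb1ip1 also held no match, yet both were called lower in female Snf5 CKO, at log2 fold changes of -2.58 and -2.51. Msh5 and Hfm1 held matches but had no call in males. A relation between matches and changes was not tested. The windows lie at chr17:35046623-35046872 for Msh5, chr5:106925891-106926140 for Hfm1, chr5:108775028-108775277 for Rnf212 and chr12:85270600-85270849 for Mlh3.
Msh5: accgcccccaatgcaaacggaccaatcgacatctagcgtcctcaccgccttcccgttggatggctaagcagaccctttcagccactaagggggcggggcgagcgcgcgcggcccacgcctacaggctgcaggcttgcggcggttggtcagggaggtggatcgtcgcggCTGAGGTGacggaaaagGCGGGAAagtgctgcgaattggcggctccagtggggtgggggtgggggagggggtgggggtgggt
Hfm1: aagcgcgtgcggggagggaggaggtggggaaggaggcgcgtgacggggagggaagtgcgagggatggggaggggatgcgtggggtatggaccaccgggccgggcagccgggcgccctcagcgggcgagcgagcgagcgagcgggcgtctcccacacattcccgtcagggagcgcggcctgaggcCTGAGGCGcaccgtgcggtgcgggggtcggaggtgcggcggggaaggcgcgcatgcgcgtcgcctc
Rnf212: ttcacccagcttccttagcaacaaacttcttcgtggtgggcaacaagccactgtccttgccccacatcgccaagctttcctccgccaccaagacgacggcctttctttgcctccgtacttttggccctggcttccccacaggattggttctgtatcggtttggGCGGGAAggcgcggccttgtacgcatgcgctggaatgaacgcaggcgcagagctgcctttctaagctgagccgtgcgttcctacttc
Mlh3: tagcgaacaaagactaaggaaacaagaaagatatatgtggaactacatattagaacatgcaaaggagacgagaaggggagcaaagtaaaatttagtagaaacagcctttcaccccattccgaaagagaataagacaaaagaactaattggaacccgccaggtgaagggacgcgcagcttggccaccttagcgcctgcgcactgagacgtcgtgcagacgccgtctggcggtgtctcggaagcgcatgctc

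The Msh5 sequence held CTGAGGTG, a match to the STRA8 motif on the other strand, from base -82 to -75 relative to the start, and GCGGGAA, an E2F site on the other strand, from -65 to -59. The Hfm1 sequence held CTGAGGCG, again a match to the STRA8 motif, from -66 to -59. The Rnf212 sequence held GCGGGAA from -87 to -81. No E-box was found in any of the windows, and those of Msh4, Ccnb1ip1 and both Mlh3 starts held none of the 3 motifs. Among 32851 mouse promoters of the same length, the STRA8 motif was present in 6.42%, the E2F site in 3.82% and the E-box in 6.02%. The windows of Hfm1 and Msh5 were also rich in G and C, at 75.6% and 67.2%, compared with 43.6% for Msh4, 48.8% for Ccnb1ip1 and a median of 52.4% for all promoters. The loci of Msh4, Msh5, Hfm1 and Mlh3 and the locus at the position of Rnf212 begin further upstream in both tables than these starts, so other starts of the same genes may not be covered. For Msh4 the start used was at position 153904891 and the locus reached 153906138 in females and 153906850 in males, so the whole Msh4 window lay inside its locus, and the absence of motifs and the share of G and C hold for that window only. In females the windows of Hfm1, Mlh3 and Rnf212 also lay wholly inside their loci, for Rnf212 the locus at its position. The matches of Msh5 and Hfm1 lay inside their loci in both sexes, and that of Rnf212 in females. These stretches may thus be transcribed. A match is a description of letters, and no binding was measured here.

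In female germ cells, 5 of the 6 named genes were lower in Snf5 CKO than in control and none was higher, at an adjusted p under 0.05 and a log2 fold change of at least 1 in size. The same call was made for 21.8% of all tested loci in the lower direction and for 17.2% in the higher direction. The median log2 fold change of the 6 genes was -2.88, and that of all tested loci was -0.14. The gene without a call was Mlh3. The p-values are from limma with Benjamini-Hochberg adjustment over all tested loci, each sex was fitted alone, and every fold change was computed after adding 1 to the FPKM. An exact permutation test of a single gene with 2 libraries in each group cannot go below p = 0.333. In sorted cells measured in bulk, fewer cells that express a gene and less RNA per cell cannot be told apart.

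**Figure D1:**
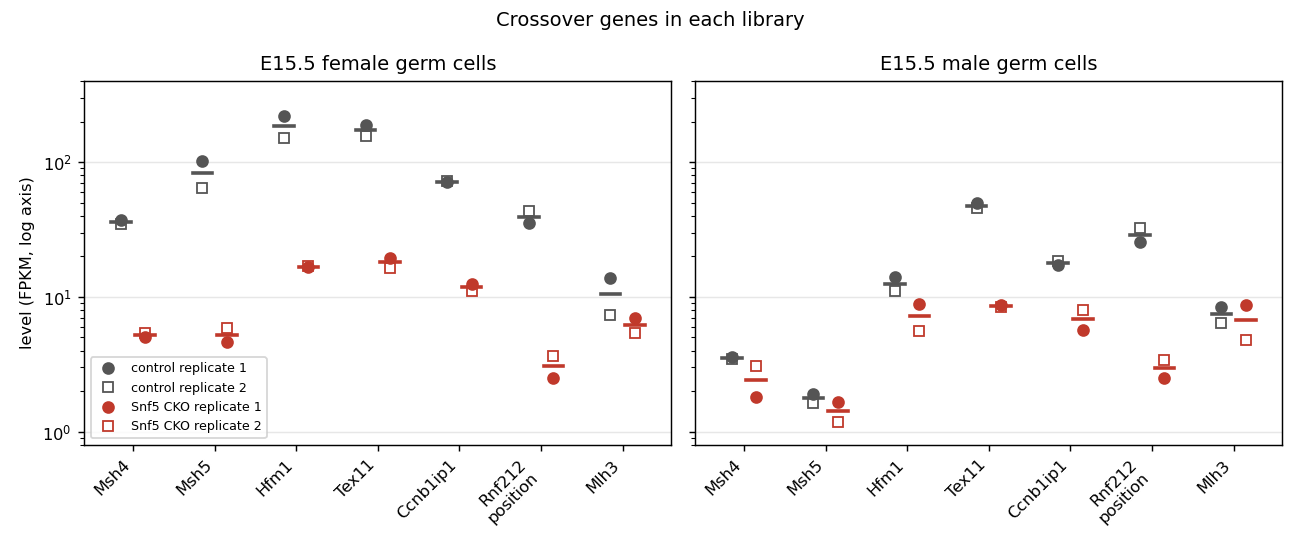
Level of each gene in each library, in FPKM on a log axis, for female (left) and male (right) germ cells. Circles are replicate 1, squares replicate 2, grey control, red Snf5 CKO, and bars are the mean of 2 libraries. In females the control and Snf5 CKO libraries are widely separated for all genes but Mlh3, whereas in males this is seen for Tex11, Ccnb1ip1 and the locus at the position of Rnf212.

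MSH4 and MSH5 form the MutS-gamma complex, a relative of the mismatch recognition proteins that clamps onto recombination intermediates. Msh4 (chromosome 3, 153857141 to 153906138 of mm10) was at 37.1 and 35.0 FPKM in female control and at 5.01 and 5.38 FPKM in Snf5 CKO. Its mean thus went from 36.1 ± 1.50 to 5.19 ± 0.263 FPKM (SD, n = 2), with a log2 fold change of -2.58 (SE 0.17, limma adjusted p = 0.00011). The replicates of each group lay close together and far from the other group. Msh5 (chromosome 17, 35028605 to 35046745) was at 102 and 63.8 FPKM in control and at 4.64 and 5.84 FPKM in Snf5 CKO, so its control libraries differed more from each other than those of Msh4. Its mean was 82.8 ± 26.9 FPKM in control against 5.24 ± 0.849 FPKM in Snf5 CKO (SD, n = 2), which is 6.32% of the control level. The log2 fold change of Msh5 was -3.72 (SE 0.25, limma adjusted p = 0.00012), and 23 of the tested loci had a lower one. The FPKM of Msh5 relative to Msh4 in the same library was 2.74 and 1.82 in control and 0.926 and 1.09 in Snf5 CKO. In these libraries the partners thus had nearly equal FPKM in Snf5 CKO.

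HFM1 is a helicase required for crossovers, the mouse counterpart of yeast Mer3. Hfm1 (chromosome 5, 106840187 to 106926366) had the highest mean of the named genes in female control, with 221 and 152 FPKM, and was at 16.5 and 17.0 FPKM in Snf5 CKO. The groups were far apart, although control replicate 1 was well above replicate 2. The mean was 187 ± 49.1 FPKM in control against 16.8 ± 0.315 FPKM in Snf5 CKO (SD, n = 2), with a log2 fold change of -3.38 (SE 0.22, limma adjusted p = 0.00011). Of all tested loci, 42 had a lower log2 fold change.

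TEX11 is the mammalian relative of yeast Zip4, a scaffold among the ZMM proteins, and its gene lies on the X chromosome (100838648 to 101059639). Tex11 was at 189 and 156 FPKM in female control and at 19.6 and 16.5 FPKM in Snf5 CKO, a mean of 172 ± 23.3 against 18.0 ± 2.2 FPKM (SD, n = 2). Its log2 fold change was -3.19 (SE 0.19, limma adjusted p = 0.00011). In both groups replicate 1 was the higher library, and the Snf5 CKO level was 10.4% and 10.6% of the control library with the same number.

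CCNB1IP1, also called HEI10, and RNF212 are RING finger proteins that act in the choice of the sites that become crossovers. Ccnb1ip1 (chromosome 14, 50789249 to 50795728) was at 71.5 and 72.1 FPKM in female control and at 12.5 and 11.0 FPKM in Snf5 CKO. The mean was 71.8 ± 0.393 FPKM in control against 11.8 ± 1.05 FPKM in Snf5 CKO (SD, n = 2), with a log2 fold change of -2.51 (SE 0.17, limma adjusted p = 0.00011). Its control libraries were the closest to each other among the 6 genes relative to their mean.

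Rnf212 is annotated on the minus strand of chromosome 5 from 108729290 to 108774982. In each table that whole interval is covered by a pair of loci that carry the name of 1700047L14Rik, an antisense RNA gene of 3 exons inside Rnf212 on the plus strand. The locus numbers of the tables run first through one strand and then through the other: 21804 of 21823 female and 21324 of 21336 male loci with a single annotated gene followed that order, 99.9% in both. By this order the more abundant locus of the pair falls in the minus strand block, the strand of Rnf212. This assignment rests on position and numbering and was made after the tables had been seen, and the cDNA kit does not keep strand, so reads of Rnf212 and of its antisense partner cannot be told apart. The locus was at 35.1 and 43.4 FPKM in female control and at 2.48 and 3.67 FPKM in Snf5 CKO, with a log2 fold change of -3.31 (SE 0.22, limma adjusted p = 0.00011). The other locus of the pair was under 1 FPKM in every female library.

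MLH3 is a subunit of the meiotic endonuclease that acts on the intermediates that the ZMM proteins hold. Mlh3 (chromosome 12, 85234462 to 85271077) was at 13.9 and 7.28 FPKM in female control and at 6.95 and 5.37 FPKM in Snf5 CKO. The groups did not overlap, but control replicate 2 lay close to Snf5 CKO replicate 1. The mean was 10.6 ± 4.66 FPKM in control against 6.16 ± 1.12 FPKM in Snf5 CKO (SD, n = 2), and the log2 fold change of -0.64 did not pass the test (95% interval -1.37 to 0.09, limma adjusted p = 0.11). The result for Mlh3 turned on single libraries, with -1.06 (limma adjusted p = 0.0074, a call) without control replicate 2 and -0.22 without control replicate 1. With the replicate number as a block its limma adjusted p was 0.014, but the size remained under the threshold for a call.

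**Figure D2:**
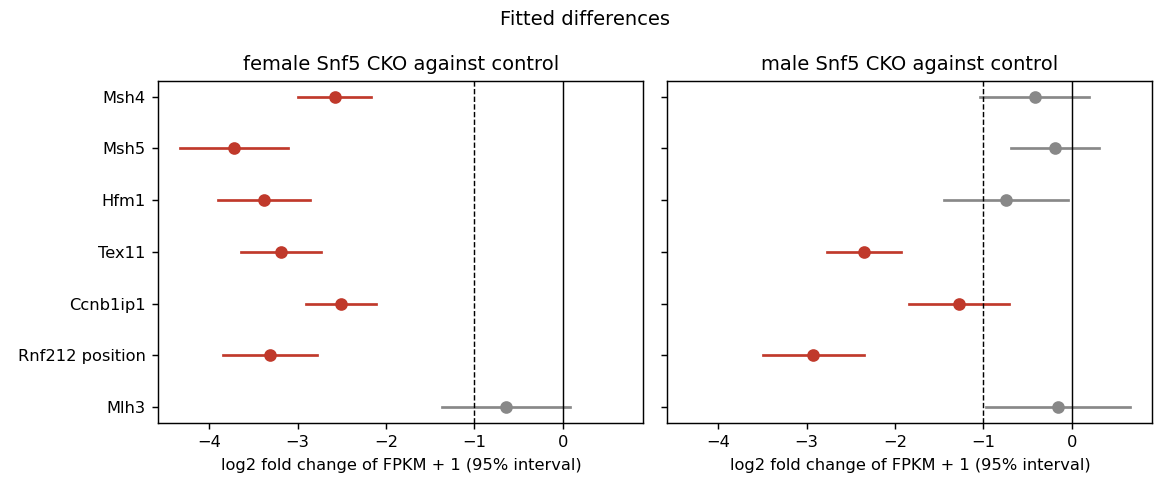
Log2 fold change of FPKM + 1 in Snf5 CKO against control, with its 95% interval from limma, in females (left) and males (right). Red marks a call, grey no call, and the dashed line is a log2 fold change of -1. Mlh3 is the gene without a call in females at -0.64, and Msh4, Msh5, Hfm1 and Mlh3 have none in males.

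The order of the genes by level in female control was Hfm1, Tex11, Msh5, Ccnb1ip1, the locus at the position of Rnf212, Msh4 and Mlh3. Among neighbours in that order, the ranges of Hfm1 and Tex11, of Msh5 and Ccnb1ip1, and of the Rnf212 position and Msh4 overlapped, while the other neighbours were apart. Among the 6 named genes the highest control mean was 17.7-fold above the lowest. In Snf5 CKO this span was 3.47-fold, from Tex11 at 18.0 FPKM to Msh4 at 5.19 FPKM, and Mlh3 at 6.16 FPKM then had a mean above both Msh4 and Msh5, although its libraries overlapped theirs. FPKM is scaled by transcript length, but other biases that differ between genes were not examined, so this order is a description only.

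In male germ cells, which enter meiosis only after birth, 2 of the 6 named genes, Tex11 and Ccnb1ip1, were lower in Snf5 CKO and none was higher, compared with 17.5% of all tested loci lower and 14.3% higher. The median log2 fold change of the 6 genes was -0.58, against -0.07 for all tested loci. Tex11 was at 49.4 and 45.8 FPKM in male control and at 8.69 and 8.37 FPKM in Snf5 CKO, a mean of 47.6 ± 2.56 against 8.53 ± 0.222 FPKM (SD, n = 2). Its groups were well separated, with a log2 fold change of -2.35 (SE 0.16, limma adjusted p = 0.0022). Ccnb1ip1 was at 17.2 and 18.5 FPKM in control and at 5.69 and 7.98 FPKM in Snf5 CKO. Its mean of 17.8 ± 0.930 FPKM in control against 6.84 ± 1.62 FPKM in Snf5 CKO (SD, n = 2) gave a log2 fold change of -1.28 (SE 0.22, limma adjusted p = 0.0095), and the call was lost without moderation of the variances (adjusted p = 0.092).

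The locus at the position of Rnf212 was also lower in males, at 25.7 and 32.2 FPKM in control and at 2.51 and 3.39 FPKM in Snf5 CKO. Its log2 fold change was -2.92 (SE 0.22, limma adjusted p = 0.0023), and without moderation the adjusted p was 0.055. In Snf5 CKO it stood at 7.84% of its control mean in females and at 10.2% in males.

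Hfm1, Msh4, Msh5 and Mlh3 were not called in males. Hfm1 was at 14.1 and 11.0 FPKM in control and at 8.83 and 5.55 FPKM in Snf5 CKO, with no overlap between the groups and a log2 fold change of -0.75 (95% interval -1.45 to -0.05, limma adjusted p = 0.078). Without Snf5 CKO replicate 1 this became -1.04 (limma adjusted p = 0.042, a call), and with the replicate number as a block the adjusted p was 0.0025 at a size under the threshold. Msh4, which in the male table shares a locus with Asb17os, an antisense RNA gene, was at 3.56 and 3.46 FPKM in control and at 1.81 and 3.05 FPKM in Snf5 CKO. Its groups did not overlap, and the log2 fold change was -0.42 (95% interval -1.03 to 0.20, limma adjusted p = 0.21). Msh5 had the lowest level of the named genes, with 1.90 and 1.62 FPKM in control against 1.67 and 1.18 FPKM in Snf5 CKO, so that its groups overlapped. The 95% interval of its log2 fold change of -0.19 went from -0.69 to 0.30. Mlh3 was at 8.46 and 6.38 FPKM in control and at 8.77 and 4.77 FPKM in Snf5 CKO, and the Snf5 CKO libraries lay on either side of both controls. Its log2 fold change was -0.15 (95% interval -0.97 to 0.66, limma adjusted p = 0.72). These intervals do not exclude moderate differences in either direction for Msh5 and Mlh3.

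**Figure D3:**
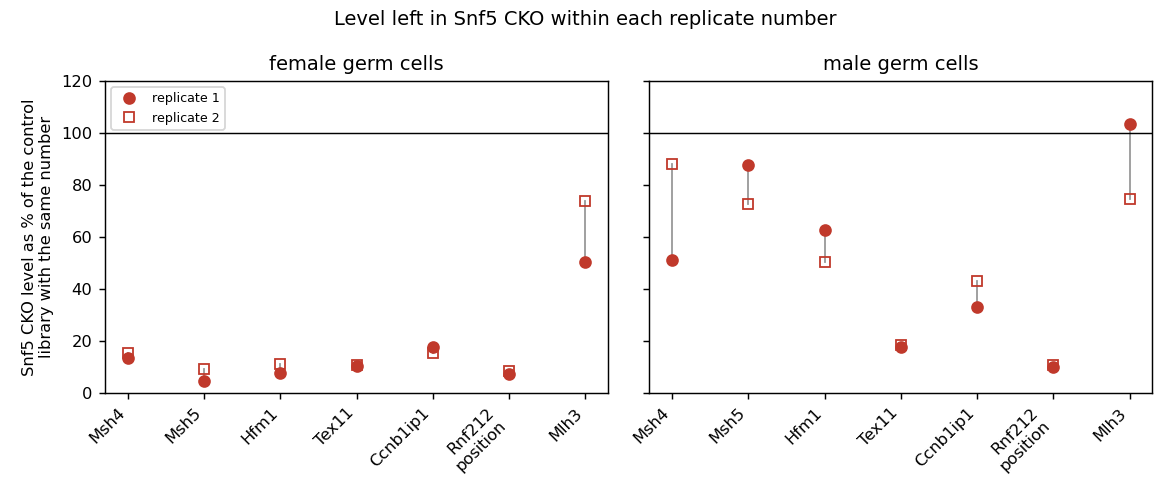
Level in each Snf5 CKO library as a percentage of the control library with the same replicate number, for females (left) and males (right). Circles are replicate 1 and squares replicate 2, and the line at 100 marks the control level. In females all genes but Mlh3 lie between 4.55% and 17.5%, and in males the locus at the position of Rnf212 and Tex11 lie lowest.

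The same replicate number appears in the 4 groups. It is read here as a shared batch, an assumption that no label states outright. Within each number, the 5 genes called in females were at 4.55% to 17.5% of their control library, and Mlh3 was at 50.2% and 73.7%. In males Tex11 was at 17.6% and 18.3% and Ccnb1ip1 at 33.2% and 43.2%. Msh4 was at 50.9% in replicate 1 and at 88.0% in replicate 2 of males, and Mlh3 at 104% and 74.7%, so the replicates of these genes differed widely.

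The tables of the sexes were normalized separately, so levels in females and males are set side by side without a test. Control means were 82.8 and 1.76 FPKM for Msh5, 187 and 12.6 FPKM for Hfm1 and 36.1 and 3.51 FPKM for Msh4, in females and males in this order. They were 172 and 47.6 FPKM for Tex11, 71.8 and 17.8 FPKM for Ccnb1ip1, 39.3 and 29.0 FPKM for the locus at the position of Rnf212, and 10.6 and 7.42 FPKM for Mlh3. The genes called in males thus had male control means of 17.8 FPKM or more, whereas those without a call were at 12.6 FPKM or less.

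Genes with the most similar pattern were sought by the distance between log2(FPKM + 1) values over the 8 libraries. The values of each gene were first centred on its own mean within each sex. The search covered 10472 loci tested in both sexes. The nearest to Msh5 were Prdm9 (distance 0.32), the histone methyltransferase that places meiotic breaks, Tsga10 (0.34) and Meiob (0.64), a DNA binding protein of meiotic recombination. Those nearest to Tex11 were Lrrc27, Taf9b and Specc1, and those nearest to Ccnb1ip1 were Tpgs2, Sgsm3 and Fam161b. Msh4 was closest to Arhgap26, Lyrm1 and Zfp653, Hfm1 to Cdkl2, Garnl3 and Mum1l1, and Mlh3 to Atp6v0a1, Parpbp and Ppp1r26. These distances describe 8 libraries, and because of the centring they compare differences around the mean of each gene and not levels.

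Other genes of the same pathways were examined as lists. Of the 5 crossover cofactors analysed here, 2 were lower and none was higher in female Snf5 CKO, with a median log2 fold change of -0.82. Among all tested female loci, 21.8% were lower and 17.2% higher. Mcmdc2, an MCM relative needed for crossovers, was at 50.7 and 35.6 FPKM in control and at 3.46 and 3.20 FPKM in Snf5 CKO, a log2 fold change of -3.33 (limma adjusted p = 0.00011). Cntd1, a cyclin-like protein that acts late in crossover formation, was at 31.0 and 30.6 FPKM in control and at 7.12 and 7.53 FPKM in Snf5 CKO, a log2 fold change of -1.94 (limma adjusted p = 0.00021). Both were lower in each Snf5 CKO library than in either control, as the ZMM genes were.

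In males 1 of these 5 cofactors, Prr19, was lower, with a log2 fold change of -1.34 (limma adjusted p = 0.0063), and 1, the exonuclease gene Exo1, was higher. Exo1 was at 5.54 and 3.58 FPKM in control and at 24.1 and 17.4 FPKM in Snf5 CKO, a log2 fold change of 1.97 (limma adjusted p = 0.0056). The median of this list was 0.03 in males, and its counts are near the 17.5% lower and 14.3% higher of all tested loci.

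Of 6 general mismatch repair genes analysed here, which correct replication errors in all dividing cells, 1 was lower and 1 higher in female Snf5 CKO, with a median log2 fold change of 0.40. These counts are near what the 21.8% and 17.2% of all tested loci would give for a list of this size. Pms2, which acts after a mismatch has been recognised, was at 68.3 and 52.1 FPKM in control and at 20.0 and 15.2 FPKM in Snf5 CKO, a log2 fold change of -1.72 (limma adjusted p = 0.00075). Msh6, a mismatch recognition protein, was at 69.4 and 50.5 FPKM in control and at 160 and 108 FPKM in Snf5 CKO, a log2 fold change of 1.14 (limma adjusted p = 0.0080). It had no call without control replicate 2 (0.91) or without Snf5 CKO replicate 1 (0.86). In males none was lower and 2 were higher, Pcna at 1.56 (limma adjusted p = 0.0068) and Exo1, with a median of 0.69. Among all tested male loci, 17.5% were lower and 14.3% higher.

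Of 13 genes for nucleases and for dissolution of joint molecules, which serve repair outside the ZMM route, 3 were lower and 2 higher in females, with a median of 0.20. Here too the counts are near the 21.8% and 17.2% of all tested loci. Mus81, the catalytic subunit of a structure-specific nuclease, was at 3.23 and 3.02 FPKM in female control and at 12.2 and 15.0 FPKM in Snf5 CKO, a log2 fold change of 1.82 (limma adjusted p = 0.00043). In males Mus81 was at 7.07 and 6.61 FPKM in control and at 26.7 and 30.8 FPKM in Snf5 CKO, a log2 fold change of 1.92 (limma adjusted p = 0.0027). It was higher in all Snf5 CKO libraries of both sexes. Slx1b was also higher in females, at 1.31, and Recql5 and the resolvase gene Gen1 were lower, at -1.22 and -1.10. The remaining female call was Rmi1 at -1.04, a gene named after its value was seen. None of these 3 lower calls held without control replicate 1, at -0.98 for Recql5, -0.85 for Gen1 and -0.73 for Rmi1.

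In males 1 gene of this list was lower, Slx4 at -1.44 (limma adjusted p = 0.030), and 4 were higher, with a median of 0.24, beside 17.5% and 14.3% of all tested loci. Among the higher genes were Eme2, a partner of Mus81, at 1.80 and Rmi2 at 1.22. The other was Eme1, also a partner of Mus81, at 1.09, which was named after its value was seen and had no call without control replicate 2 (0.99) or without Snf5 CKO replicate 1, where it lay just under the threshold of size. Slx4 and Rmi2 rested on single libraries: without control replicate 1 they were at -1.01 and 0.85, and without Snf5 CKO replicate 2 at -1.13 and 0.93, with no call. Rmi2 also had no call with a pseudocount of 0.1 (limma adjusted p = 0.052), with no filter (0.060) or on linear FPKM (0.086), and Eme1 had none after rescaling to a common sum (0.91, limma adjusted p = 0.13). The level of Rmi2 was low in all male libraries, between 0.295 and 3.74 FPKM.

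**Figure D4:**
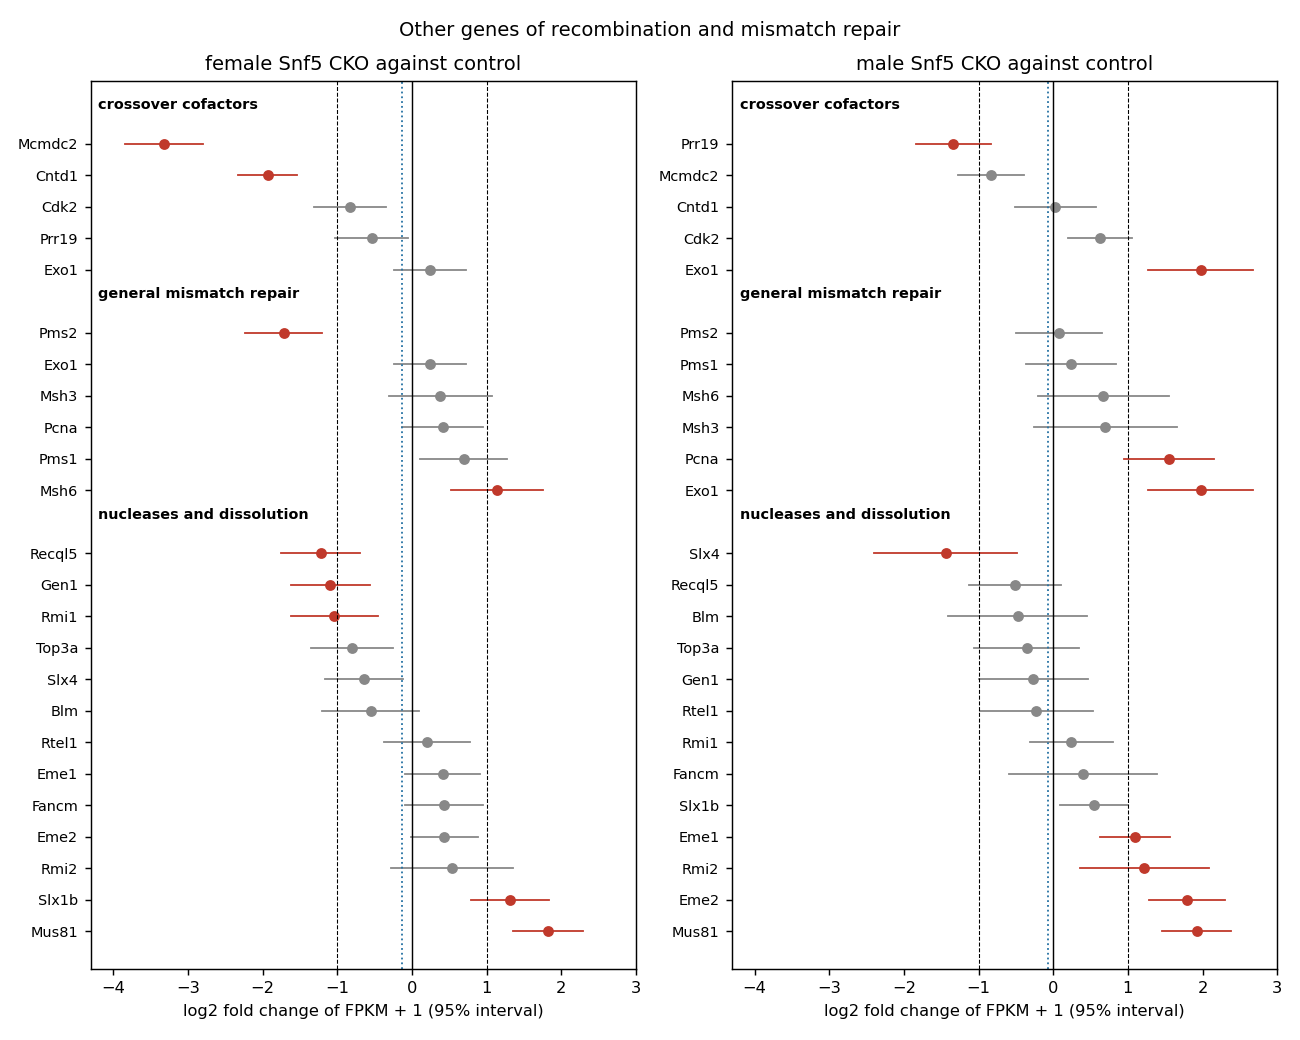
Log2 fold change of FPKM + 1 in Snf5 CKO against control, with its 95% interval from limma, for the other genes of recombination and mismatch repair in females (left) and males (right). Red marks a call, grey no call, dashed lines are log2 fold changes of 1 and -1, and the dotted line is the median of all tested loci (-0.14 and -0.07). Mcmdc2 lies lowest in females and Mus81 is among the highest in both sexes, and Exo1 appears under 2 headings.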

How the data were processed

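The RNA-Seq tables analysed here were made by the authors, who synthesized and amplified cDNA with the SMART-Seq v4 kit, mapped reads to mouse mm10 with TopHat and quantified loci with Cufflinks. The submitters' processing notes name TopHat2 2.2.1 and Cuffdiff 2.1.1, and the study's methods give other version numbers. The annotation version and the normalization for library size are not given in the sources used here. The deposited values are FPKM per locus and library, with one table per sex, with a quantification status beside each value. Confidence bounds, held in 16 columns, were left aside.

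Unnamed loci (4737 of 29018 in females and 6272 of 30216 in males) were left out of the tests, and for a gene with several rows the most abundant row was taken. Values were transformed to log2(FPKM + 1), and loci averaging at least 1 FPKM across a table's 4 libraries were fitted with lmFit and eBayes with a trend in limma 3.58.1 (R 4.3.3), for each sex alone. Adjustment of p-values followed Benjamini and Hochberg and covered all tested loci. A call required an adjusted p under 0.05 and a log2 fold change of at least 1 in size. The fit was also run on simulated data with independent noise between libraries. That setting lacks the correlation of same-numbered libraries, so it gives no rate of false calls for these data. Nothing in the labels ties the libraries to separate litters, so p-values measure the spread between these samples.

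No read numbers are in the tables, so the depth is unknown and no counting interval is given. Steps in the low FPKM values placed the libraries at 0.946 to 1.47 times the depth of control replicate 1 of their table. For female Snf5 CKO replicate 2, double the depth placed 31.2% of low values on steps, as many as the best value. Near ties with double the depth were also found for male control replicate 2 (33.4% at best, 33% at double) and female control replicate 2 (27.6% and 26.4%). Female Snf5 CKO replicate 1 had 67.9% at best and 63.9% at a depth lower by a factor of 2. A factor of 2 was thus not settled. The sum of FPKM over all loci was between 673700 and 1555000 per library.

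Replicate numbers were assumed to be shared batches, because the male column names call them experiments and the labels name raw files in a different style for each number. The female column names give a number only, and no label states a batch outright. Deviations of same-numbered libraries from their group means had a correlation across loci of 0.504 in females and 0.595 in males. The replicate block was an alternative. The others were omission of the filter, a filter at a mean of 5 FPKM, a pseudocount of 0.1, rescaling to a common sum or by median-of-ratios, eBayes without trend, no moderation, linear FPKM, loci with status OK, and each library left out.

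The genes and lists were chosen with earlier results of these data known. Named in the text are all 7 chosen genes, from each other list up to 4 called genes with the largest change in a sex, and for each chosen gene the 3 loci with the nearest profile. Some genes of the other lists are not reported here, and the counts leave them out. Promoter sequences came from RefSeq (GRCm38.p6), gene models from GENCODE for GRCm38, and plots from matplotlib 3.10.9 (Python 3.11.15).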

Additional observations from a re-analysis of the deposited data

Results flagged for a closer look

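In 2 genes of the other pathway lists the Snf5 CKO libraries were all below the controls in females and all above them in males. These genes were picked for this pattern, and how many of all tested loci show it was not counted. The difference between the sexes was not tested, since the tables were normalized separately. Cdk2, a kinase found at crossover sites, had a log2 fold change of -0.82 in females, where it was at 66.6 and 49.0 FPKM in control and at 33.6 and 30.1 FPKM in Snf5 CKO, and 0.63 in males, where it was at 27.8 and 28.4 FPKM in control and at 46.7 and 41.2 FPKM in Snf5 CKO. Rmi1, a subunit of the complex that dissolves joint molecules, had -1.04 in females and 0.24 in males, and in males its control replicate 2 and Snf5 CKO replicate 2 were both at 13.9 FPKM. Rescaling to a common sum moved the median of all male loci by -0.16, and under the alternatives with all libraries the male values of Cdk2 lay between 0.44 and 0.71 and those of Rmi1 between 0.07 and 0.32.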

How the results depend on the processing

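The 5 female genes called lower kept that call under every alternative run, with log2 fold changes between -4.05 (Msh5) and -2.35 (Ccnb1ip1). The male call for Tex11 did too, between -2.53 and -2.27. With the replicate block the counts of called genes among the 6 were again 5 in females and 2 in males, and the block moved none of the list counts by over 1.5 times. In males Mlh3 turned positive without control replicate 1 (0.02) and without Snf5 CKO replicate 2 (0.22), and its values with a library left out went from -0.53 to 0.22. Without moderation of variances the count of lower genes among the 6 was 1 in males. In the same setting no general mismatch repair gene was called in either sex (0 lower and 0 higher), the nucleases had 0 lower and 1 higher in each sex, and the male cofactors 0 lower and 0 higher. Calls over all loci fell there to 1055 lower and 866 higher in females and to 370 and 279 in males. Median-of-ratios rescaling, which moved the median of all female loci by 0.15, left 1 lower nuclease gene in females. A mean of at least 5 FPKM left 1 higher nuclease gene in females and 2 in males. A pseudocount of 0.1 and linear FPKM each gave 2 lower cofactors in males, and no lower nuclease gene was called in males with no filter or with linear FPKM (0 in each). With a library left out, the female mismatch repair counts were 1 lower throughout and 0 to 1 higher, the female nucleases 0 to 4 lower, and the male nucleases 0 to 1 lower. Without female control replicate 1 the lower count of the nucleases was 0, and without female control replicate 2 or Snf5 CKO replicate 1 no mismatch repair gene was higher. The lower male nuclease gene, Slx4, was lost without control replicate 1 or Snf5 CKO replicate 2. The causes were not tested. Male levels of Msh4 and Msh5 were under 4 FPKM, where the added 1 makes fold changes smaller, and with 2 libraries a group the intervals are wide.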

Other observations

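SHOC1, another ZMM protein, and SPO16 and RNF212B have no row under their names. An unnamed locus covers 78.0% of the annotated Shoc1 gene in the female table and 77.8% in the male table. In females it was at 37.6 and 32.9 FPKM in control and at 3.85 and 3.75 FPKM in Snf5 CKO. In males it was at 3.51 and 3.70 FPKM in control and at 1.73 and 1.78 FPKM in Snf5 CKO. Unnamed loci were not tested. All 7 chosen genes are annotated on the minus strand, and their longest transcripts have between 4 exons (Ccnb1ip1) and 40 exons (Hfm1).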
